A study of Mus musculus with 36 samples.

Results

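Pressure overload was examined in control hearts. The 6 libraries labelled as control mice after transverse aortic constriction with vehicle (Con-TAC) were set against the 6 labelled as control mice after sham surgery with vehicle (Con-Sham). These 12 libraries were taken by their titles from the 36 in the series, and every difference given is Con-TAC minus Con-Sham. Transverse aortic constriction (TAC) narrows the aortic arch with a suture, so that the left ventricle pumps against a raised pressure. Each library holds total RNA of mouse tissue that is labelled whole heart. The remaining libraries come from mice labelled cSirt4-Tg after sham or TAC with vehicle (Tg-Sham, Tg-TAC) and from both genotypes after TAC with MitoQ, an antioxidant that accumulates in mitochondria. What the control mice share with the cSirt4-Tg mice, their strain, sex and age, the time after surgery, the vehicle and the promoter of the transgene were not stated in the labels.

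A heart under raised pressure is known to enlarge its muscle cells and to return to genes of the fetal heart, among them the natriuretic peptides, skeletal muscle actin and the slow myosin heavy chain. Its fibroblasts are known to deposit matrix, and its muscle cells to lower potassium channels and genes of fatty acid use. Because heart tissue was measured without separating its cells, fewer cells of a type and less RNA per cell cannot be told apart.

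The stretches printed here are the 250 bases before the RefSeq transcription start (GRCm38.p6) of 3 stress genes that rose, shown because they carry motifs of factors that are known to act on load-responsive genes. Acta1 lies at chr8:123894776-123895025 on the minus strand, Ankrd1 at chr19:36119845-36120094 on the minus strand and Nppb at chr4:147985650-147985899 on the plus strand. Capitals mark the M-CAT motif (CATTCC on either strand), which TEAD factors are known to bind, and in Acta1 also the CArG box, the motif of serum response factor.
Acta1: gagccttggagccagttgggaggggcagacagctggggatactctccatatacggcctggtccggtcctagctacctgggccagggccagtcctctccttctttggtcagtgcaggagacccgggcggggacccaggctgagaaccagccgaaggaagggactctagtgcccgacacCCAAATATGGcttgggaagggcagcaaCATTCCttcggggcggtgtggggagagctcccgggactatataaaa
Ankrd1: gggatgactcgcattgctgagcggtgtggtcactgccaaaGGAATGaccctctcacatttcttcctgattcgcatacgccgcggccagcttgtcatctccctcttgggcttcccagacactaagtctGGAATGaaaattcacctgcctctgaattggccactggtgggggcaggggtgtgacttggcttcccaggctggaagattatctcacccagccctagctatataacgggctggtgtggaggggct
Nppb: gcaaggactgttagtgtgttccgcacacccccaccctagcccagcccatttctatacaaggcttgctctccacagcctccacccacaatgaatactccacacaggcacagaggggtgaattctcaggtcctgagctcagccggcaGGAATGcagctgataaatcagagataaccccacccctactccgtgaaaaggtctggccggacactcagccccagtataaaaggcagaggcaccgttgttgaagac
Counting back from -1 at the base before the start, the CArG box of Acta1 began at -73 and its M-CAT motif at -46. Ankrd1 had an M-CAT motif at -210 and another at -123, and Nppb had one at -105. Among all 32851 RefSeq promoters of this length, 12.6% held an M-CAT motif and 1.47% a CArG box. The windows of Nppa, Edn3, Cilp, Postn and Bdh1 held neither, and of 2 windows of Myh7 1 held an M-CAT motif. A match of letters is a description of the sequence and was not tied to any measurement of binding.

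Each value below is a normalised read count, that is, the reads of a gene divided by a size factor of the library. A gene was called when limma gave an adjusted p under 0.05 over the 16275 genes tested. The Con-Sham libraries held 25904544 to 60010648 reads in genes and the Con-TAC libraries 26984912 to 37964377. Con-TAC 6 stood apart, with a mean correlation across genes of 0.934 with the other Con-TAC libraries against 0.960 to 0.964 for the rest. Of 10 atrial markers, Sln was at 0 in all Con-Sham libraries. Bmp10, Myl7 and Mybphl were at most 12.4 there and Myl4 at most 83.6. Nppa, Clu, Gpr22 and Stard10 were at 509 or more there and Dkk3 at 7.70 to 56.8. With Sln, Myl7 and Bmp10 this low, the label of whole heart could not be checked. How much atrium each library held was not measured apart from these markers. Myl7 reached 39.5 in Con-TAC 5 and 117 in Con-TAC 6, and the epithelial keratin Krt18 reached 400.1 in Con-TAC 6 against at most 48.8 elsewhere. Sirt4, which was not altered in these mice by their labels, ranged from 349 to 606 in Con-Sham and from 253 to 385 in Con-TAC. The numbers in the library names also split the groups, since 3 of 6 Con-Sham and 5 of 6 Con-TAC libraries are named 7 to 14 and what the numbers stand for is not given. Structural RNAs differed between the groups as described further below, and so moved with every gene group. Their part in the differences was not tested.

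TAC hearts differed from sham hearts in 863 of 16275 genes, which is 5.3% of those tested. The calls were even in direction, with 431 genes higher (2.65%) and 432 lower (2.65%). That evenness was lost at 1 other scaling: 931 were called higher and 183 lower at equal totals of reads from outside the mitochondrial genome. With TMM factors, a further scaling between libraries, 411 were called higher and 456 lower. DESeq2, which differs in its model as well, called 837 higher and 601 lower. Changes were larger upwards: 178 called genes were at least 2-fold higher and 80 at least 2-fold lower. Among all genes tested, 595 (3.66%) had Con-TAC and Con-Sham values that did not overlap, and 354 of the 863 called genes were among them. The count of calls rested on single libraries. It was 134 without Con-TAC 4 and 1543 without Con-TAC 1, and between 370 and 853 without each of the others. It fell to 24 among the libraries named 7 to 14 alone and to 166 with the class of the name number in the fit. In the 12 fits that each left out 1 library, 130 genes called with all libraries (0.799% of those tested) were called every time, 71 of them higher and 59 lower. Of these 130, 19 were called among the libraries named 7 to 14 and 62 with the name class in the fit. Genes of that set are named below as having held their call in every such fit. It was formed after the data were seen. Counts of called members in the gene lists below are to be set beside the 5.3% called over all genes, and no list was tested.

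**Figure D1:**
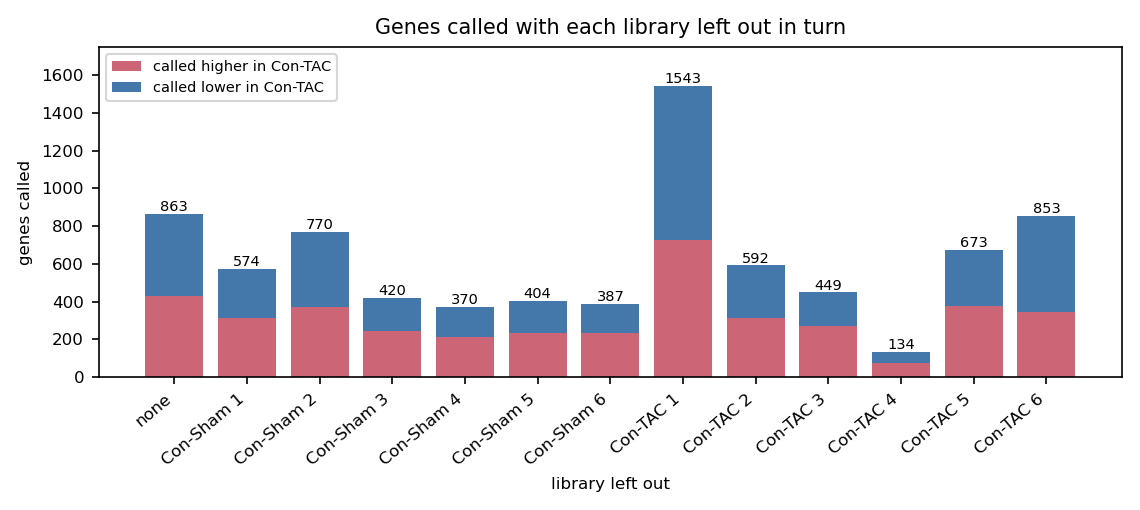
Number of genes called (bars, higher in red and lower in blue) when no library or 1 of the 12 libraries is left out; the vertical axis starts at 0. The count with all libraries was 863, and it dropped to 134 without Con-TAC 4 and rose to 1543 without Con-TAC 1.

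The TAC libraries were also less alike than the sham libraries. The median over genes of the SD of log2 values was 0.21 in Con-Sham, 0.31 in Con-TAC and 0.24 in Con-TAC without Con-TAC 6. In 69.1% of the genes tested the SD was larger in Con-TAC. Over the 15 most increased genes with a mean of at least 100, Con-TAC 6 was the highest Con-TAC library for 13 and Con-TAC 4 for 2. The lowest was Con-TAC 5 for 9 of them and Con-TAC 1 for 6.

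The stress genes of heart muscle rose in TAC. In the list of natriuretic peptides and fetal program genes, 7 of 19 tested members were called higher and 1 lower, with a median log2 difference of 0.86 against 0.01 over all genes. The list's median was 0.49 without Con-TAC 6, and 0.63 in the libraries named 7 to 14. Acta1, skeletal muscle alpha-actin (chromosome 8, 124618508 to 124621490 in mm39), was at 3483 to 10127 in Con-Sham, with a median of 6572. In Con-TAC it was at 27540.1 to 107859, with a median of 93664. No Con-TAC library overlapped the Con-Sham range, and the log2 difference was 3.54 ± 0.57 (SE) with an adjusted p of 0.000824. Its difference was 2.91 in the libraries named 7 to 14, where it was not called (adjusted p = 0.112). Within Con-Sham the libraries named 7 to 14 (Con-Sham 1 to 3) held 7992 to 10127 reads and the others 3483 to 5152. Ankrd1, a titin-bound protein that responds to stretch, was at 27651, 46471 and 71802 (lowest, median and highest) in Con-Sham and at 89661, 152592 and 218043 in Con-TAC. The groups did not overlap, and it rose by 1.60 ± 0.33 on the log2 scale (adjusted p = 0.00774). Both genes held their call whichever library was left out.

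The natriuretic peptides were less even. Nppa, atrial natriuretic peptide, was at 4266, 4787 and 7403 in Con-Sham and at 10111, 31262 and 111264 in Con-TAC. All 6 Con-TAC values were above all Con-Sham values, yet Con-TAC 1, 3 and 5 stayed at or below 11938 while Con-TAC 2, 4 and 6 were at 50585 or more. The log2 difference was 2.38 ± 0.71 (adjusted p = 0.0452), and 1.97 without Con-TAC 6 (adjusted p = 0.0985). Since Nppa is also an atrial marker, the atrial Myl7 values of Con-TAC 5 and 6 stand beside it, and their part in its level was not tested. Nppb, B-type natriuretic peptide, was at 4009, 5281 and 5951 in Con-Sham and at 4882, 18633 and 30514 in Con-TAC. Its groups overlapped through Con-TAC 1, and it rose by 1.58 ± 0.41 (adjusted p = 0.0248). Corin, the protease that activates the natriuretic peptides, fell by 0.51 ± 0.15 (adjusted p = 0.0379, and 0.0638 when scaled outside the mitochondrial genome), from a median of 7342 to 5045. Rcan1, a calcineurin target, rose by 1.34 ± 0.39 (adjusted p = 0.0421), from 2346 to 2770.2 in Con-Sham to between 2155 in Con-TAC 1 and 14986 in Con-TAC 4. Among the relatives of Ankrd1, Ankrd23 rose by 1.24 ± 0.29 (adjusted p = 0.0139) and the weakly expressed Ankrd2 by 2.77 ± 0.81 (adjusted p = 0.0401). Their calls ended without single libraries: for Nppa without any Con-Sham library or Con-TAC 2, 4 or 6, for Nppb without Con-Sham 5, Con-TAC 3 or Con-TAC 4, and for Ankrd23 without Con-TAC 4. Corin and Rcan1 lost theirs without any Con-Sham library or Con-TAC 2, 3, 4 or 6, and Ankrd2 without Con-Sham 3 to 6 or Con-TAC 2 to 6. The adjusted p-values without those libraries were 0.0505 to 0.146.

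The share of slow myosin rose less evenly than that of skeletal actin. Within each library, Acta1 made up 2.43% ± 0.77 (SD, n = 6) of the reads of Acta1 and cardiac Actc1 in Con-Sham and 20.2% ± 8.35 (SD, n = 6) in Con-TAC. The lowest Con-TAC share, 8.89%, was above the highest Con-Sham share, 3.56%. An exact permutation test, two-sided and adjusted over 4 shares, gave 0.00866 for it, from the smallest p that 6 against 6 allows (0.00216). In the libraries named 7 to 14 the difference was 15.3 percentage points and the adjusted exact p 0.0714. Myh7, the slow myosin heavy chain, made up 2.28% ± 0.80 (SD, n = 6) of Myh6 and Myh7 reads in Con-Sham. In Con-TAC the share was 2.19% to 6.77% in 5 libraries and 38.6% in Con-TAC 6. Con-TAC 1 (4.26%), 2 (6.77%), 4 (4.78%) and 6 were above the highest Con-Sham share of 3.28%, and Con-TAC 3 and 5 were not. The adjusted exact permutation p was 0.0664, and the difference of 7.54 percentage points fell to 1.78 without Con-TAC 6. That adjusted p passed below 0.05 without Con-TAC 2 (0.0462), Con-TAC 3 (0.0173) or Con-TAC 5 (0.0173). Neither Myh7 (log2 0.86 ± 0.45, adjusted p = 0.256) nor Myh6 (-0.61 ± 0.23, adjusted p = 0.0968) was called.

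**Figure D2:**
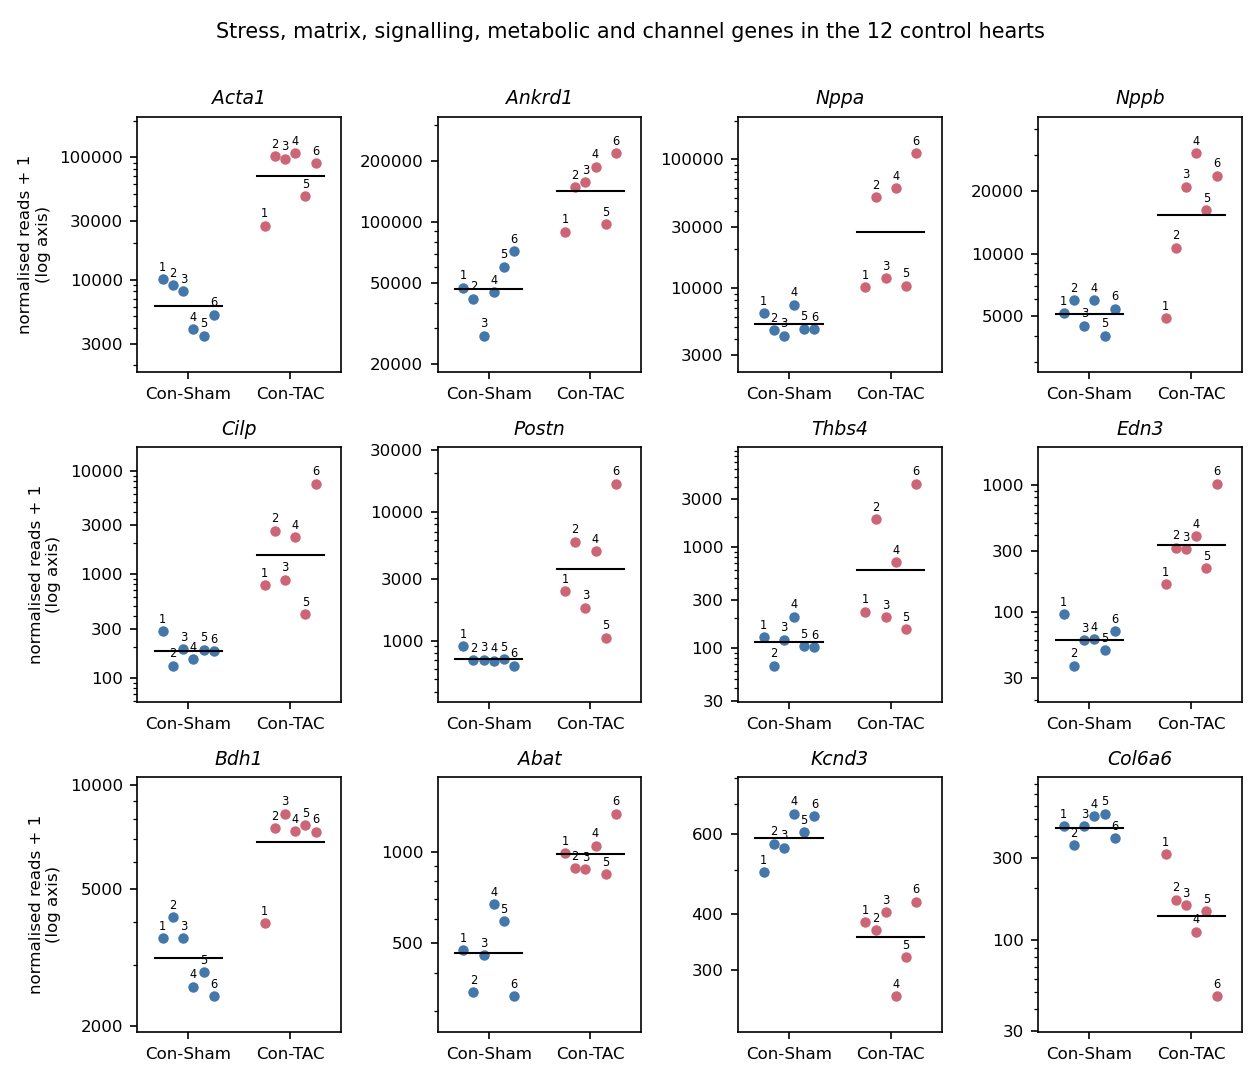
Normalised reads plus 1 on log axes for 12 genes in the 6 Con-Sham (blue) and 6 Con-TAC (red) libraries, each point labelled with its library number; horizontal lines are geometric means. Acta1 rose in all 6 Con-TAC libraries, while Nppa, Cilp, Postn and Thbs4 spread widely among them with Con-TAC 6 highest.

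A few sarcomere and heat shock genes were called, most of them higher. In the sarcomere list 3 of 30 members were called higher and 1 lower, with a median log2 difference of 0.06. Myot, a Z-disc protein, was at 950.1, 1136 and 1687 in Con-Sham and at 2283, 3854 and 4683 in Con-TAC. The groups did not overlap, and Myot rose by 1.60 ± 0.30 (adjusted p = 0.00348). Csrp3, the muscle LIM protein, rose by 0.37 ± 0.10 (adjusted p = 0.0342), and Des, the intermediate filament desmin, by 0.56 ± 0.17 (adjusted p = 0.0461). Nebl, the cardiac nebulette of the thin filament, fell by 0.50 ± 0.13 (adjusted p = 0.0266). In the heat shock list 3 of 18 members, all small heat shock proteins, were called higher and 1 lower, with a median of 0.47. Hspb7 was at 47748, 52881 and 58193 in Con-Sham and at 70185, 81283 and 85588 in Con-TAC, so the groups did not overlap. It rose by 0.59 ± 0.12 (adjusted p = 0.00774). Hspb6 rose by 0.84 ± 0.20 (adjusted p = 0.0161) and Hspb8 by 0.48 ± 0.11 (adjusted p = 0.0149), while Hspa12a, a distant HSP70 relative, fell by 0.60 ± 0.18 (adjusted p = 0.045, and 0.0629 when scaled outside the mitochondrial genome). Myot and Hspb7 held their calls whichever library was left out, and so did Sh3bgr (0.77 ± 0.15, adjusted p = 0.00347), Hspa1l (1.08 ± 0.21, adjusted p = 0.00433) and the muscle cofilin Cfl2 (0.37 ± 0.09, adjusted p = 0.0122), which were picked from that set after their values were seen. Hspb6 and Hspb8 lost the call without Con-TAC 4 (0.0581 and 0.0625). Csrp3 lost it without Con-Sham 1, 3, 4 or 5 or Con-TAC 3, 4 or 5, Des without Con-Sham 1, 3, 4, 5 or 6 or Con-TAC 2, 3, 4 or 6, Nebl without Con-Sham 3 or 4 or Con-TAC 3, 4 or 5, and Hspa12a without Con-Sham 1, 3, 4, 5 or 6 or Con-TAC 2 to 6. The adjusted p-values of these 4 genes were then 0.0503 to 0.138.

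Ion channel genes were lower on the whole, with few calls. Of 23 potassium and sodium channel genes, 22 had a negative difference and 2 were called, both lower (8.70%, beside 5.3% over all genes). The list's median was -0.35 in all libraries and -0.36 in those named 7 to 14. Scaled to equal totals of reads from outside the mitochondrial genome, which moved the median of all genes from 0.01 to 0.11, the list's median was -0.25. Kcnd3, a subunit of the transient outward potassium current, was at 493, 588 and 665 in Con-Sham and at 262, 375 and 425 in Con-TAC. It did not overlap between the groups and fell by 0.73 ± 0.16 (adjusted p = 0.012). Abcc9, the sulphonylurea receptor of the ATP-sensitive potassium channel, fell by 0.74 ± 0.20 (adjusted p = 0.0274), with Con-TAC 1 inside the Con-Sham range. The partner gene Kcnd2 (-0.91 ± 0.32, adjusted p = 0.0851) and the silent subunit Kcnv2 (-1.56 ± 0.55, adjusted p = 0.0839) were not called, although all 6 Con-TAC values of Kcnv2 lay below all Con-Sham values. None of 21 calcium handling genes was called at a median of -0.18. Among them the L-type channel Cacna1c was at -0.46 ± 0.14 (adjusted p = 0.0508), the ryanodine receptor Ryr2 at -0.53 ± 0.18 (adjusted p = 0.0809) and the pump Atp2a2 at -0.47 ± 0.21 (adjusted p = 0.174). At an unadjusted p under 0.05 there were 8 of these 21. By edgeR 0 were called and by DESeq2 1, while without Con-TAC 6 limma called 3. Kcnd3 lost its call without Con-TAC 4 (adjusted p = 0.0555), and Abcc9 without Con-Sham 4, 5 or 6 or Con-TAC 4 or 6 (0.0519 to 0.0966).

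Among cyclic nucleotide and junction genes few were called, most of them lower. Of 19 adrenergic and cyclic nucleotide genes, 3 were called lower and none higher. Adcy6, a main adenylyl cyclase of heart muscle, was at 7209.9, 7416 and 9118 in Con-Sham and at 4583, 5036 and 6412 in Con-TAC, without overlap, and fell by 0.54 ± 0.14 (adjusted p = 0.0283). The phosphodiesterases Pde3a (fell by 0.67 ± 0.18, adjusted p = 0.0333) and Pde4d (fell by 0.60 ± 0.16, adjusted p = 0.0309) break down cyclic AMP. The list's median was -0.10 with all libraries and -0.31 in those named 7 to 14. In the junction and costamere list, 2 of 23 members were called lower and 1 higher. Desmoglein Dsg2 fell by 0.65 ± 0.17 (adjusted p = 0.0286) and N-cadherin Cdh2 by 0.26 ± 0.08 (adjusted p = 0.0448, but -0.16 and 0.215 when scaled outside the mitochondrial genome), while Nrap, an anchor of nascent myofibrils, rose by 0.42 ± 0.13 (adjusted p = 0.0456). None of these 6 calls held without Con-TAC 3 or without Con-TAC 4. Further calls ended for Adcy6 without Con-Sham 4 or Con-TAC 2, for Pde3a, Pde4d and Dsg2 without Con-Sham 3, 4, 5 or 6, for Cdh2 without Con-Sham 1, 3, 4, 5 or 6 or Con-TAC 2 or 5, and for Nrap without any Con-Sham library or Con-TAC 2 or 6. Adjusted p-values were 0.0503 to 0.166 in those fits.

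Calls among genes of the extracellular matrix were nearly all higher, and the main collagens were not among them. In the list of matricellular proteins and proteoglycans 7 of 32 members were called higher and none lower, with a median of 0.81. Among collagens 3 of 23 were called higher (median 0.50), among elastic fibre and cross-linking genes 3 of 26 higher and 1 lower (median 0.43), and among matrix proteases and inhibitors 5 of 29 higher (median 0.45). Those medians were 0.66, 0.31, 0.27 and 0.24 in the libraries named 7 to 14. Without Con-TAC 6 they were 0.63, 0.33, 0.28 and 0.34, and the called members went to 3, 1, 1 and 2. Without Con-TAC 4 they went to 1, 0, 0 and 2. Cilp, the cartilage intermediate layer protein, was at 129.8, 183 and 280.0 in Con-Sham and at 410.0, 1592 and 7584 in Con-TAC. All Con-TAC values lay above all Con-Sham values, over a range from Con-TAC 5 to Con-TAC 6. It rose by 3.09 ± 0.62 (adjusted p = 0.00618), by 2.63 without Con-TAC 6, and held its call whichever library was left out.

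Postn and Thbs4 ordered the Con-TAC libraries alike, from Con-TAC 6 down to Con-TAC 5. Periostin (Postn), made by activated fibroblasts, was at 636, 704 and 898 in Con-Sham and at 1051, 3671 and 16577 in Con-TAC. Thrombospondin 4 (Thbs4) was at 66.0, 112 and 204 in Con-Sham and at 155, 472 and 4299.9 in Con-TAC. The first did not overlap between the groups and rose by 2.32 ± 0.64 (adjusted p = 0.0333), and the second overlapped and rose by 2.36 ± 0.71 (adjusted p = 0.0456). Without Con-TAC 6 these differences were 1.88 (adjusted p = 0.0715) and 1.79 (adjusted p = 0.11). The proteoglycan Bgn rose by 1.36 ± 0.37 (adjusted p = 0.0316) and Ccn5 by 1.46 ± 0.42 (adjusted p = 0.0373). A pair of small leucine-rich proteoglycans was more even: Aspn was at 662 to 804 in Con-Sham and 946 to 2182 in Con-TAC, and Lum at 969 to 1431 and 1754 to 3197. They rose by 1.00 ± 0.24 (adjusted p = 0.0161) and 0.78 ± 0.19 (adjusted p = 0.019). Ccn2, a target of mechanical and TGF-beta signals, was at 1722 to 4132 in Con-Sham and 3315 to 19860.2 in Con-TAC and was not called (1.12 ± 0.49, adjusted p = 0.173). Aspn and Lum lost the call without Con-TAC 4 (0.0539 and 0.0665). Postn and Bgn lost it without Con-Sham 3 to 6 or Con-TAC 2, 4 or 6, Ccn5 also without Con-Sham 1, and Thbs4 without any Con-Sham library or Con-TAC 2, 4 or 6 (0.0517 to 0.111).

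The collagens called were minor ones. Col8a1 and Col8a2 form the short-chain collagen of vessel walls, and Col11a1 is a minor fibrillar chain. Col8a1 was at 431, 502 and 537 in Con-Sham and at 652, 1532 and 5433 in Con-TAC, without overlap, and rose by 1.74 ± 0.48 (adjusted p = 0.0333). Col8a2 rose by 2.70 ± 0.65 (adjusted p = 0.0181) from no more than 9.93 reads in Con-Sham. Col11a1, at most 2.42 in Con-Sham and between 1.10 and 141 in Con-TAC, was called at 3.12 ± 0.94 (adjusted p = 0.0448). The main interstitial chains Col1a1 (0.61 ± 0.34, adjusted p = 0.277) and Col3a1 (0.52 ± 0.36, adjusted p = 0.394) were not called. Col1a1 was at 2549 to 3299 in Con-Sham and at 2965 to 9575 in Con-TAC. In the other direction Col6a6, a chain of the beaded-filament collagen VI that was not in the list, was at 355, 456 and 539 in Con-Sham and at 46.6, 152 and 313 in Con-TAC. It did not overlap, fell by 1.71 ± 0.36 (adjusted p = 0.00835) and held its call whichever library was left out. Col8a2 lost its call without Con-TAC 4 (0.0599), Col8a1 without Con-Sham 3 to 6 or Con-TAC 2, 4 or 6 (0.0531 to 0.0853), and Col11a1 without any library but Con-TAC 5 (0.0519 to 0.103).

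Microfibril proteins and enzymes that act on matrix rose beside them. Mfap4 was at 132, 152 and 213 in Con-Sham and at 281, 770.1 and 1609.9 in Con-TAC, and rose by 2.14 ± 0.51 (adjusted p = 0.0164) without overlap. Mfap5 rose by 1.58 ± 0.43 (adjusted p = 0.0317) and Ltbp2 by 2.72 ± 0.83 (adjusted p = 0.048). Ltbp1, which holds latent TGF-beta in the matrix, fell by 0.51 ± 0.16 (adjusted p = 0.0496, and 0.0869 when scaled outside the mitochondrial genome). Of the proteases, Mmp23 (1.07 ± 0.24, adjusted p = 0.0114) and the lysosomal cathepsin Ctsl (0.43 ± 0.09, adjusted p = 0.00856) rose and held their calls whichever library was left out. The gelatinase Mmp2 rose by 0.71 ± 0.18 (adjusted p = 0.0248), stromelysin Mmp3 by 1.94 ± 0.56 (adjusted p = 0.0373) and Adamtsl2 by 1.56 ± 0.47 (adjusted p = 0.0482). Cpxm2, a carboxypeptidase-like protein of the matrix picked after its values were seen, was at 652, 1053 and 1808 in Con-Sham and at 2259, 3156 and 3862 in Con-TAC. It did not overlap, and with 1.55 ± 0.22 (adjusted p = 9.11e-05) it was called whichever library was left out and among the libraries named 7 to 14 (1.99, adjusted p = 0.000176). Mfap4 lost its call without Con-TAC 4 (0.0607), Mfap5 without Con-Sham 4, 5 or 6 or Con-TAC 4 or 6, and Mmp2 without Con-Sham 6 or Con-TAC 4 or 6. Mmp3 lost it without Con-Sham 1, 2, 3, 4 or 6 or Con-TAC 3, 4 or 6, and Ltbp2, Ltbp1 and Adamtsl2 without any Con-Sham library or Con-TAC 2, 3, 4 or 6, the last 2 also without Con-TAC 5. Adjusted p-values were 0.0519 to 0.144 then.

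Markers of fibroblasts rose in part. Of 16 fibroblast markers 4 were called higher: Pi16 (1.33 ± 0.30, adjusted p = 0.0122), Mfap5, Lum and Smoc2 (0.48 ± 0.13, adjusted p = 0.0335). The summed level of the list was 65972 to 74189 in Con-Sham and 70352 to 118547 in Con-TAC, where Con-TAC 6 was highest and the next was 100532. In the TGF-beta and myofibroblast list 1 of 29 members was called higher, the homeobox gene Meox1 (1.44 ± 0.38, adjusted p = 0.0284), and 2 lower, the co-receptor Tgfbr3 (fell by 0.56 ± 0.14, adjusted p = 0.0232) and Ltbp1. Bambi, a decoy receptor of the TGF-beta family picked after its values were seen, was at 244, 371 and 471 in Con-Sham and at 416, 762 and 855 in Con-TAC. Only Con-TAC 1 lay within the Con-Sham range, and the rise of 0.94 ± 0.18 (adjusted p = 0.00334) was called whichever library was left out. Pi16 lost its call without Con-TAC 4 (0.0517), Smoc2 without Con-Sham 1, 2 or 3 or Con-TAC 2 or 4, Meox1 without Con-Sham 4, 5 or 6 or Con-TAC 4 or 6, and Tgfbr3 without Con-Sham 4 or Con-TAC 3 or 4 (0.0525 to 0.109).

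**Figure D3:**
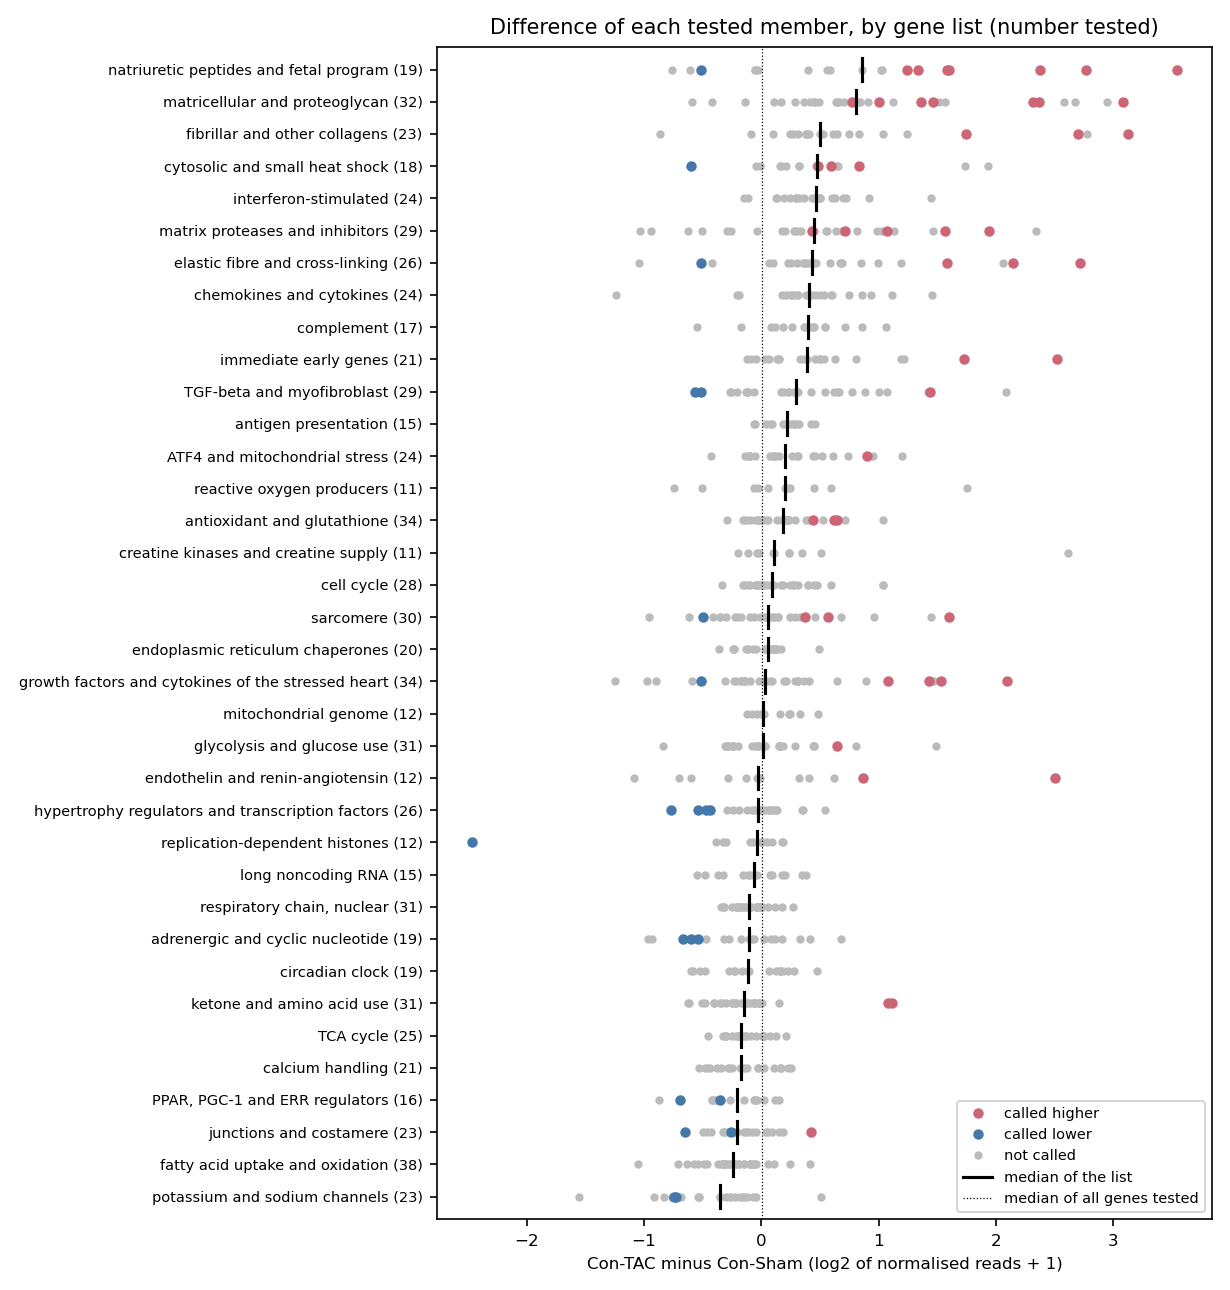
Con-TAC minus Con-Sham difference (log2 of normalised reads plus 1) of each tested member of 36 pathway lists (the list of small nuclear and nucleolar RNAs, with the lowest median at -2.31, is not drawn), sorted by the list's median (black bars); red and blue points were called, grey ones were not, and the dotted line is the median of all genes. Fetal program, matricellular and collagen genes have the highest medians of those drawn, and channels and fatty acid genes the lowest.

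Among genes of signals between cells a few were called, beside 5.3% of all genes tested. Of 12 endothelin and renin-angiotensin genes 2 were called higher (16.7%). Edn3, endothelin 3, was at 36.3, 58.7 and 94.4 in Con-Sham and at 164, 314 and 1026 in Con-TAC. The groups did not overlap, and Edn3 rose by 2.50 ± 0.50 (adjusted p = 0.00603) and held its call whichever library was left out. Ace, the angiotensin-converting enzyme, rose by 0.86 ± 0.26 (adjusted p = 0.0461). In the list of growth factors and cytokines 4 of 34 were called higher and 1 lower (14.7% called). Hbegf, a ligand of the EGF receptor, was at 266, 337 and 386 in Con-Sham and at 628, 745 and 1563 in Con-TAC, without overlap. It rose by 1.43 ± 0.30 (adjusted p = 0.00774) and held its call as Edn3 did. The activin inhibitor Fstl3 (1.53 ± 0.37, adjusted p = 0.0187) and the muscle growth factor Fgf6 (2.10 ± 0.53, adjusted p = 0.0221) also rose, and the receptor Lifr fell by 0.51 ± 0.14 (adjusted p = 0.0266). Among immediate early genes 2 of 21 (9.52%) were called, Egr2 (2.52 ± 0.62, adjusted p = 0.019) and Egr3 (1.72 ± 0.45, adjusted p = 0.0255), both higher. Dkk3, a secreted protein that is also an atrial marker, was at 7.70 to 56.8 in Con-Sham and 78.9 to 1563 in Con-TAC (2.94 ± 0.75, adjusted p = 0.0235). Met, the receptor of hepatocyte growth factor, picked after its values were seen, was at 16.1 to 55.0 and 64.7 to 213 (1.81 ± 0.31, adjusted p = 0.00111) and held its call whichever library was left out. Fstl3, Fgf6 and Egr2 lost the call without Con-TAC 4 (0.0581 to 0.0803), Dkk3 and Egr3 without Con-TAC 4 or 6, and Egr3 also without Con-Sham 6 (0.0517 to 0.0833). Lifr lost it without Con-Sham 3, 4 or 6 or Con-TAC 4 or 6, and Ace without any Con-Sham library or Con-TAC 2, 3, 4 or 6 (0.0503 to 0.115).

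Among genes of energy metabolism, Bdh1 and Abat were called higher and most others were not called. Bdh1, the mitochondrial enzyme that interconverts ketone bodies, was at 2441, 3230.4 and 4139.9 in Con-Sham and at 3977, 7432 and 8264 in Con-TAC. Con-TAC 1 was the lone library within the Con-Sham range, and the other 5 were at 7325 or more. Abat, which breaks down GABA, was at 335, 465 and 671 in Con-Sham and at 842, 935 and 1329 in Con-TAC, without overlap. They rose by 1.12 ± 0.20 (adjusted p = 0.00209) and 1.08 ± 0.21 (adjusted p = 0.00386), and both held their calls whichever library was left out, while among the libraries named 7 to 14 Abat was called (0.0259) and Bdh1 was not (0.137). They were the 2 called members of 31 ketone and amino acid genes, of which 27 had a negative difference. Genes of fatty acid uptake and oxidation were lower in 34 of 38 members, with a median of -0.24, and none was called. Cpt1b, the muscle gatekeeper of fatty acid entry, was at -0.71 ± 0.26 (adjusted p = 0.103) and Acacb, which makes its inhibitor, at -0.49 ± 0.16 (adjusted p = 0.0702). The list's median turned to 0.01 with the name class in the fit, and was -0.17 in the libraries named 7 to 14, -0.07 without Con-TAC 6 and -0.13 when libraries were scaled to equal totals of reads from outside the mitochondrial genome. At that scaling the median of all genes was 0.11. At an unadjusted p under 0.05 there were 4 of the 38 in limma, by edgeR 0 were called and by DESeq2 1.

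Of 16 regulators of this metabolism 2 were called, both lower, and neither call held when libraries were scaled outside the mitochondrial genome (0.0524 and 0.0608). Ppargc1b, a coactivator of mitochondrial genes, was at 451 to 753 in Con-Sham and 282 to 396 in Con-TAC (fell by 0.69 ± 0.20, adjusted p = 0.0367). Rxra, the partner of PPAR receptors, fell by 0.35 ± 0.10 (adjusted p = 0.0295). No member of the TCA cycle list (25 tested), of the nuclear respiratory chain list (31) or of the 12 mitochondrially encoded mRNAs was called, at medians of -0.17, -0.10 and 0.01. limma gave 5, 3 and 0 of them an unadjusted p under 0.05, and edgeR and DESeq2 called 0 in each list. The respiratory chain median turned to 0.04 without Con-TAC 6 and to 0.11 with the name class in the fit, which also turned the TCA cycle median, to 0.06. Mitochondrially encoded genes together made up 22.7% ± 2.86 (SD, n = 6) of reads in Con-Sham and 22.5% ± 2.85 (SD, n = 6) in Con-TAC, with an adjusted exact permutation p of 0.885. That difference of -0.22 percentage points reversed to 2.94 in the libraries named 7 to 14 and to 0.80 without Con-TAC 6. In glucose use, Ugp2, which makes UDP-glucose for glycogen, rose by 0.64 ± 0.15 (adjusted p = 0.0177) as the lone call of 31. Nmrk2, a muscle kinase of NAD synthesis, was at 39.6 to 167 in Con-Sham and at 122 to 2459 in Con-TAC (2.77 ± 0.71, adjusted p = 0.0238). Calls were lost without Con-TAC 4 for these 4 genes, for Ppargc1b also without Con-Sham 1, 2, 3 or 6 or Con-TAC 3 or 5, for Rxra without Con-Sham 2, 3 or 4 or Con-TAC 3 or 6, and for Nmrk2 without Con-Sham 5 or Con-TAC 6 (0.0509 to 0.112).

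Antioxidant, ATF4 and endoplasmic reticulum genes gave few calls, all of them higher, beside 5.3% called over all genes tested. Of 34 antioxidant genes 3 were called higher: sulphiredoxin Srxn1 (0.62 ± 0.15, adjusted p = 0.0192) and the glutathione peroxidases Gpx1 (0.64 ± 0.18, adjusted p = 0.0342) and Gpx8 (0.44 ± 0.11, adjusted p = 0.02). Of 24 ATF4 and mitochondrial stress genes 1 was called, the amino acid transporter Slc7a5 (0.90 ± 0.24, adjusted p = 0.0256). None of 20 endoplasmic reticulum chaperones, 11 reactive oxygen producers, 11 creatine genes, 28 cell cycle genes or 19 clock genes was called by limma, which gave 1, 2, 3, 0 and 2 of them an unadjusted p under 0.05. edgeR called 1 oxygen producer and 1 creatine gene, and DESeq2 called 2 of each. Srxn1 and Gpx8 lost the call without Con-TAC 4 (0.0802 and 0.07). Gpx1 lost it without Con-Sham 3 to 6 or Con-TAC 2, 4 or 6, and Slc7a5 without Con-Sham 3, 4 or 5 or Con-TAC 4 or 6 (0.0516 to 0.105).

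Transcription factors of the heart were called in 1 direction. Of 26 hypertrophy regulators 4 were called, all lower: Hdac9, a class II histone deacetylase that restrains hypertrophy (fell by 0.54 ± 0.14, adjusted p = 0.0235), Myocd, the serum response factor coactivator (fell by 0.47 ± 0.13, adjusted p = 0.0335), Mef2a (fell by 0.43 ± 0.12, adjusted p = 0.0367) and Tbx5 (fell by 0.77 ± 0.23, adjusted p = 0.0448). Myocd was at 1197, 1432 and 1565 in Con-Sham and at 794, 1020.1 and 1139.8 in Con-TAC, without overlap, and was the one of these called among the libraries named 7 to 14 (adjusted p = 0.0375). The list as a whole had a median of -0.03, or 0.08 at the scaling outside the mitochondrial genome, and the 4 called genes stayed negative there. At that scaling Hdac9 was still called, and Myocd, Mef2a and Tbx5 were not (0.0589 to 0.0722). Sox6, a repressor of slow fibre and fetal genes picked after its values were seen, fell by 0.61 ± 0.13 (adjusted p = 0.0067) and held its call whichever library was left out. The others lost theirs: Hdac9 without Con-Sham 5 or Con-TAC 4, Myocd without Con-Sham 1, 2, 3 or 6 or Con-TAC 2 or 4, Mef2a without Con-Sham 1, 3, 4, 5 or 6 or Con-TAC 3, 4 or 5, and Tbx5 without Con-Sham 1, 3, 4, 5 or 6 or Con-TAC 3 to 6 (0.0506 to 0.141).

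Immune genes leaned upwards with few calls. None of 24 chemokines and cytokines, 24 interferon-stimulated genes, 17 complement genes, 15 antigen presentation genes or 20 macrophage markers was called, and 21, 22, 15, 13 and 18 of them had a positive difference. limma gave 3, 6, 7, 0 and 4 of them an unadjusted p under 0.05. Medians were 0.40, 0.46, 0.40, 0.22 and 0.41. Without Con-TAC 6 they were 0.22, 0.04, 0.36, -0.01 and 0.35. By edgeR 2 complement genes were called and none of the other 4 lists, and by DESeq2 1, 0, 3, 0 and 1. Summed macrophage markers were at 8816 to 11728 in Con-Sham and at 10429 to 15326 in Con-TAC, highest in Con-TAC 6. Of 11 tested neutrophil and lymphocyte markers 1 was called, the receptor Csf3r (1.32 ± 0.37, adjusted p = 0.0335, lost without Con-Sham 2 to 6 or Con-TAC 2, 3 or 4 at 0.052 to 0.105). All 11 had a positive difference, with a median of 1.32, and of 1.34 both without Con-TAC 6 and in the libraries named 7 to 14. Their levels were low, with a summed list of 153 to 385 in Con-Sham and 249 to 619 in Con-TAC.

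Red cell genes rose together. Of 7 erythroid markers 6 were called higher, with a median of 1.20 and of 1.33 in the libraries named 7 to 14, and the seventh had a positive difference. Hbb-bt, a beta-globin, was at 48.4, 108 and 165 in Con-Sham and at 134, 293 and 310.2 in Con-TAC. Alas2, the enzyme of haem synthesis in red cell precursors, was at 83.1, 153 and 223 and at 228, 319 and 483. They rose by 1.34 ± 0.30 (adjusted p = 0.0109) and 1.16 ± 0.27 (adjusted p = 0.0129) and held their calls whichever library was left out. Con-TAC 6, highest for most remodelling genes, was lowest for Hbb-bt, Hba-a1, Hba-a2 and Hbb-bs among the Con-TAC libraries. Hba-a1 (1.07 ± 0.29, adjusted p = 0.0313), Hba-a2 (1.20 ± 0.34, adjusted p = 0.0357) and Hbb-bs (1.08 ± 0.30, adjusted p = 0.0342) belong, like Hbb-bt, to pairs of near-identical globin genes, so their separate counts are uncertain. The 3 globins lost their calls without between 4 and 9 single libraries, Con-TAC 2 and Con-TAC 4 among them (0.051 to 0.107). For Hba-a1 these were Con-Sham 1 and 5, for Hba-a2 Con-Sham 3 to 6 and Con-TAC 1, 3 and 5, and for Hbb-bs Con-Sham 1, 3 and 5 and Con-TAC 5. The blood left in each heart was not measured apart from these genes.

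Other cell markers gave few calls. None of 12 cardiomyocyte markers was called by limma, edgeR or DESeq2 (median -0.23), with 3 at an unadjusted p under 0.05, and their summed level was 2665318 to 3017826 in Con-Sham and 1519374 to 2795474 in Con-TAC, lowest in Con-TAC 6. Of 15 endothelial markers 1 was called (6.67%, beside 5.3% over all genes), namely Egfl7, which was higher (0.35 ± 0.11, adjusted p = 0.0492). Of 13 smooth muscle and pericyte markers 1 was called higher, Des, and 2 lower, smoothelin Smtn (fell by 0.52 ± 0.14, adjusted p = 0.0317) and Abcc9. Des and Abcc9 were also counted above, among sarcomere and channel genes. Myh11, Acta2, Tagln and Cnn1 were not called. Egfl7 lost its call without any Con-Sham library or Con-TAC 2 to 5, and Smtn without Con-Sham 3, 4 or 5 or Con-TAC 4 or 6 (0.0594 to 0.137). No mesothelial marker of 10 was called by limma (1 at an unadjusted p under 0.05), and edgeR and DESeq2 called 1 each. Of 11 adipocyte markers, Adipoq was at most 21.4 in all 12 libraries, while Pck1 reached 186 in Con-Sham 4 and 779.6 in Con-TAC 6, and Car3 163 and 185 in the same libraries. Fabp4 (7984 to 16409.7) and Cidea (426 to 975) were high throughout. Cidea, higher by 0.46, was the 1 call among the 8 adipocyte markers tested (12.5%). It lost the call without Con-Sham 3 to 6 or Con-TAC 3 to 5 (limma adjusted p 0.0501 to 0.107). Of 9 Schwann and neural markers tested 1 was called (11.1%), Kcna1, at -1.68, which lost its call without Con-TAC 4 (limma adjusted p = 0.0777). The lung markers Sftpc and Sftpb were below 10 throughout, and Scgb1a1 reached 53.1 in Con-Sham 6.

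Several genes of the set that held every call belong to none of these groups, and those named here were picked partly after their values were seen. Aqp8, a water channel, was at 47.3, 75.2 and 134 in Con-Sham and at 115, 437 and 616 in Con-TAC (2.13 ± 0.40, adjusted p = 0.00348). Nlrc3, an inhibitory NOD-like receptor, was at 45.9, 61.0 and 72.0 and at 127, 386 and 1360.0 (2.60 ± 0.50, adjusted p = 0.00389). Panx1, an ATP-releasing channel, was at 24.2 to 38.3 and at 56.6 to 346 (1.85 ± 0.38, adjusted p = 0.00633). Of these 3 only Aqp8 overlapped between the groups, through Con-TAC 1. Atp8a2, a lipid flippase, was at 243 to 301 in Con-Sham and 477 to 890.3 in Con-TAC (1.13 ± 0.16, adjusted p = 0.000101). Ninj1, which ruptures membranes in cell death, rose by 0.57 ± 0.10 (adjusted p = 0.00111). On the lower side, the cadherin Celsr2 was at 280.0, 339.7 and 385 in Con-Sham and at 102, 132 and 279.9 in Con-TAC. Its fall of 1.21 ± 0.19 (adjusted p = 0.000314) came with Con-TAC 1 at the edge of the Con-Sham range and the other 5 libraries at 149 or less. The arginine transporter Slc7a1 fell by 0.79 ± 0.15 (adjusted p = 0.00455), Parp1, a sensor of DNA breaks, by 0.38 ± 0.08 (adjusted p = 0.00859) and the cohesin subunit Rad21 by 0.29 ± 0.06 (adjusted p = 0.00884). Scaled to equal totals of reads from outside the mitochondrial genome, Rad21 was at -0.19 and no longer called (adjusted p = 0.0818), while Parp1, Celsr2 and Slc7a1 were.

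Among well-expressed genes outside the lists, the largest increases and falls included several with little known in heart. Itgbl1, an integrin-like secreted protein, was at 216 to 275 in Con-Sham and 411 to 2275 in Con-TAC (1.76 ± 0.45, adjusted p = 0.0234), without overlap. Pamr1, a secreted protease-like protein, was at 16.5 to 61.6 and 52.6 to 732 (2.46 ± 0.61, adjusted p = 0.0204). Cenpf, a large kinetochore protein that also binds microtubules in muscle, was at 358 to 1886 in Con-Sham, while 5 Con-TAC libraries held 217 or less and Con-TAC 1 held 959. It fell by 2.30 ± 0.66 (adjusted p = 0.0373). The synaptic adhesion gene Lrrc4b (fell by 1.76 ± 0.45, adjusted p = 0.0224) and Stum (fell by 1.49 ± 0.39, adjusted p = 0.0245) did not overlap between the groups. Itgbl1 lost its call without Con-TAC 4 or 6, Pamr1 and Lrrc4b without Con-TAC 4, Stum without Con-Sham 4, 5 or 6 or Con-TAC 3 or 4, and Cenpf without Con-Sham 3 to 6 or Con-TAC 3 to 6 (0.0502 to 0.121).

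The largest difference of any gene tested was the fall of an RNA that codes for no protein. Rn7sk, the 7SK RNA that holds the elongation factor P-TEFb inactive (chromosome 9, 78082585 to 78082915 in mm39), was at 1764, 4547 and 7997 in Con-Sham. In Con-TAC it was at 32.7, 55.5 and 139, which was 68.2-fold lower by group means (log2 -6.03 ± 0.41, adjusted p = 7.91e-12). Scarna2, a guide of modifications on spliceosomal RNA, was at 45.9, 133 and 217 in Con-Sham and at 1.55, 5.11 and 36 in Con-TAC. It fell by 4.01 ± 0.59 (adjusted p = 0.00013). Neither overlapped between the groups. Gm54867, a short gene of unnamed function, was at 189, 619.8 and 948 and at 11.1, 14.2 and 17.5 (log2 -5.18 ± 0.42, adjusted p = 2.43e-10). Scarna6 (fell by 2.91 ± 0.59, adjusted p = 0.00635) and the histone mRNA H4c4 (fell by 2.46 ± 0.59, adjusted p = 0.0176), both under 30 reads, were called too. H4c4 was the 1 called of 12 replication-dependent histone genes tested (8.33%, beside 5.3% over all genes). Of those 12 genes, 6 had a positive difference, and their median was -0.03. Rn7sk, Gm54867 and Scarna2 were called whichever library was left out and among the libraries named 7 to 14, and Scarna6 and H4c4 whichever library was left out. Snora73b fell by 1.72 ± 0.47 (adjusted p = 0.0327, lost without Con-Sham 1, 3, 5 or 6 or Con-TAC 4 at 0.0539 to 0.0981).

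Ribosomal RNAs fell as well. The mitochondrial rRNAs mt-Rnr1 and mt-Rnr2 fell by 1.40 ± 0.23 (adjusted p = 0.00107) and 1.28 ± 0.21 (adjusted p = 0.00111), without overlap and with the call held whichever library was left out. They made up 9.09% to 18.2% of the mitochondrial reads in Con-Sham and 4.96% to 6.95% in Con-TAC. The mRNAs of the same genome gave no call, as stated above. Cytoplasmic 18S rRNA (Rn18s-rs5) took 7.12% ± 3.14 (SD, n = 6) of all reads in Con-Sham and 3.06% ± 3.03 (SD, n = 6) in Con-TAC. In Con-TAC 5 libraries were at 1.55% to 2.27%, and Con-TAC 2 was at 9.22%. The adjusted exact permutation p was 0.0664, and 0.013 without Con-TAC 2. In the limma fit Rn18s-rs5 fell by 1.57 ± 0.38 (adjusted p = 0.0187, lost without Con-Sham 6 or Con-TAC 4 at 0.0502 and 0.0635). AY036118, whose span overlaps the end of Rn18s-rs5 in part, fell by 3.13 ± 0.54 (adjusted p = 0.00115). In Con-TAC 2, where 18S was high, mt-Rnr1 was at 113393, within the range of the other Con-TAC libraries, while Rn7sk (139), Scarna2 (36) and AY036118 (68.5) were the highest of the group. Rn7sk was also high in Tg-Sham (1228 to 5235) and low in Tg-TAC (64.9 to 359) and in both MitoQ groups (16.8 to 40.3). Library preparation was from total RNA, and the step that removed rRNA or chose polyadenylated RNA was not stated in the labels. How far that step differed between sham and TAC libraries was not tested.

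**Figure D4:**
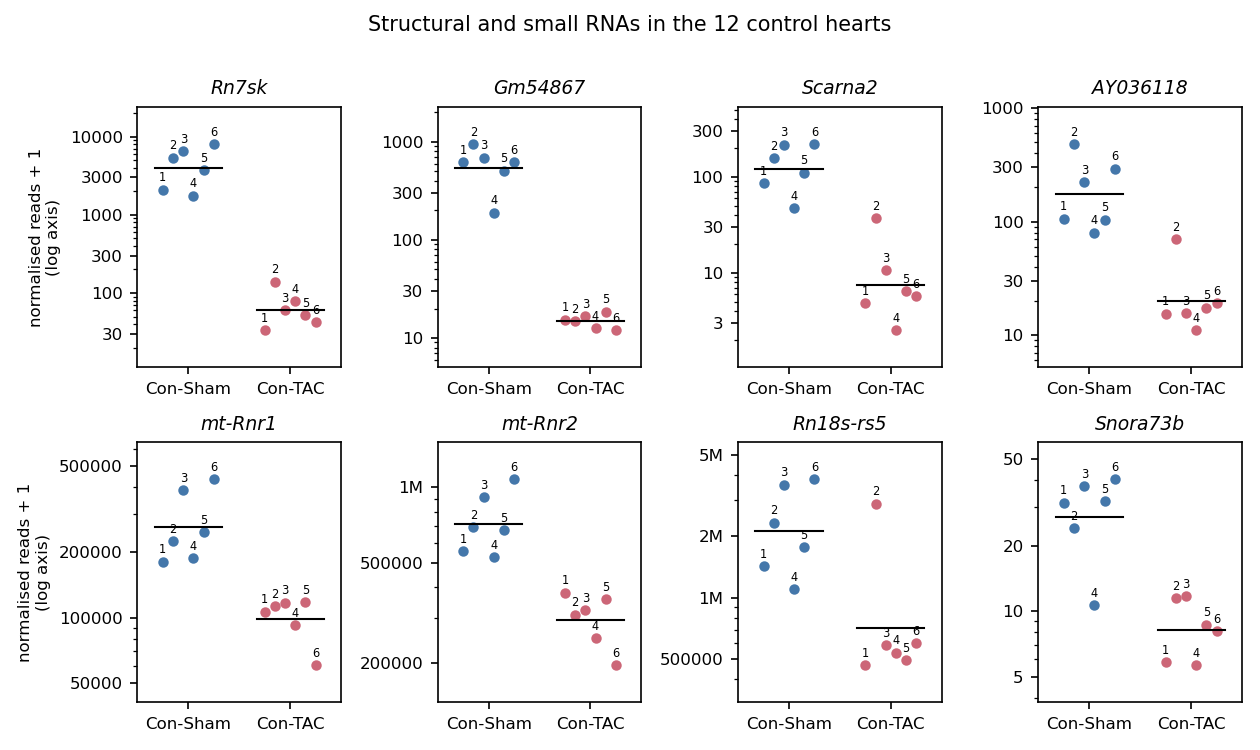
Normalised reads plus 1 on log axes for 8 structural and small RNAs in the 6 Con-Sham (blue) and 6 Con-TAC (red) libraries, labelled by library number; horizontal lines are geometric means. Rn7sk, Gm54867, Scarna2, mt-Rnr1 and mt-Rnr2 are lower in every Con-TAC library, and Con-TAC 2 alone keeps a Con-Sham level of Rn18s-rs5.

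Genes called lower were long genes more often than genes called higher. By their span in the genome, the genes tested were split into 5 groups of 3255. In the longest (64.7 kb and more) 199 were called lower (6.11%) and 70 higher (2.15%). In the shortest (up to 5.5 kb) 53 were called lower (1.63%) and 78 higher (2.40%). Long genes called lower include Pde4d, Ltbp1, Hdac9 and Sox6. The median log2 difference went from 0.06 in the shortest group through 0.05, 0.02 and -0.01 to -0.06 in the longest. In the libraries named 7 to 14 it went from 0.08 to -0.08. This is a description over genes, which are not independent, and other properties of long genes were not tested.

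**Figure D5:**
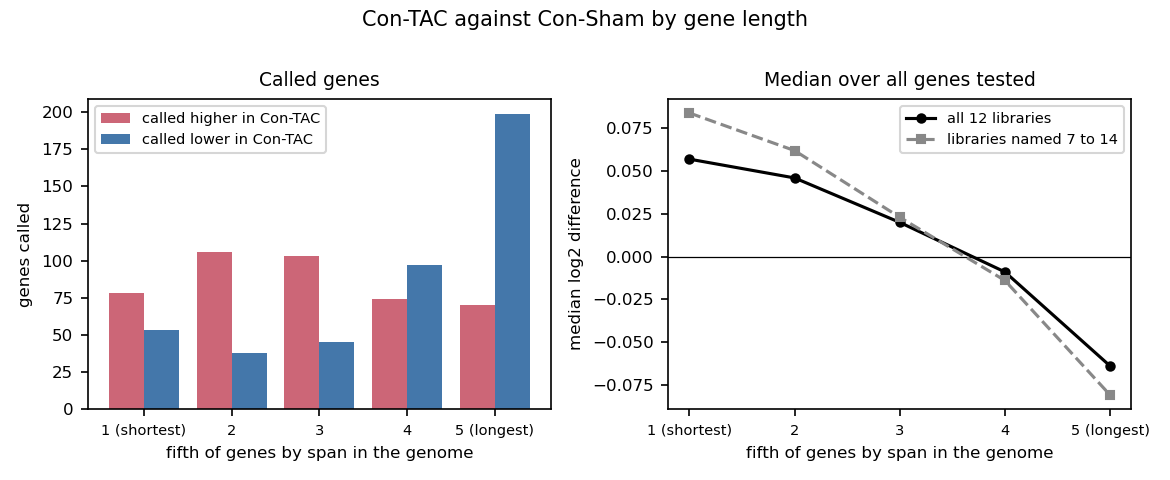
Genes called (left, bars from 0, higher in red and lower in blue) and median log2 difference (right, all 12 libraries in black and the libraries named 7 to 14 in grey) for 5 equal groups of genes ordered by span in the genome. The longest group has 199 genes called lower against 70 higher, and its median is -0.06.

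The same contrast in the hearts labelled cSirt4-Tg shares no library with this one, although both draw on 1 estimate of the spread. The name numbers split Tg-Sham and Tg-TAC as they split Con-Sham and Con-TAC, and Rn7sk was low in Tg-TAC as well. What part either had in signs shared by the genotypes was not tested. The transgene could not be checked from Sirt4 itself, which was at 314 to 444 in Tg-Sham and 349 to 606 in Con-Sham. There 2716 genes (16.7%) were called between Tg-TAC and Tg-Sham. Of the 863 genes called in control hearts, 843 had the same sign in Tg hearts, as had 11804 of all 16275 genes tested. Of the 863, 500 were called there with that sign. Those 500 are 57.9% of the control calls and 18.4% of the Tg calls, against 15.8% of all genes tested that were called in Tg with the sign they had in control hearts. None of the 863 was called in the opposite direction. A test of the difference between the TAC effects of the genotypes called 0 genes by limma and by edgeR and 2 by DESeq2, with 949 at an unadjusted p under 0.05 in limma. Cilp was at 2.49 in Tg hearts (adjusted p = 0.00746), Nppa at 2.42 (0.0193) and Postn at 2.84 (0.00401). The differences were smaller there for Acta1 (1.63, adjusted p = 0.0459), Ankrd1 (0.44, adjusted p = 0.375) and Cpxm2 (0.35, adjusted p = 0.278), and the adjusted p-values of the difference between genotypes were 0.765, 0.751 and 0.616. Acta1 was at 10211 to 62805 in Tg-Sham, above the Con-Sham range. Its median was 117706 in Tg-TAC (9532 to 192358) and 93664 in Con-TAC. Abat was at 1.08 in control hearts and -0.43 in Tg hearts (adjusted p = 0.151), the smallest adjusted p of a difference in limma (0.178). The erythroid genes Hbb-bt (0.45, adjusted p = 0.311) and Alas2 (0.21, adjusted p = 0.621) were not called in Tg hearts, with adjusted p-values of 0.821 and 0.738 for the difference.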

How the data were processed

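RNA of whole mouse hearts was sequenced from a directional library kit, per the labels' protocols. Trim Galore and STAR are named with build mm39, per the submitters' processing notes, without versions. The deposited table is a signal of read counts that the authors had divided by 1 size factor per library: 100% of values came back as whole reads within 0.01 of a read. The differences were computed with limma 3.58.1 in R 4.3.3 on log2(value + 1) from the deposited values, so folds of low genes are understated. The fit gave 1 mean to each of 6 groups (36 libraries, 30 residual degrees of freedom, trend and robust), and Con and Tg contrasts thus share a spread. Genes reaching a value of 10 in 6 or more of the libraries entered the test, p-values were two-sided with Benjamini-Hochberg adjustment, and the threshold was 0.05. The series text gives 6 mice per group, and p-values measure the spread between these libraries. The recovered reads were also tested with edgeR 4.0.16 and with DESeq2 1.42.0. Other scalings, pseudocounts, filters and fits without 1 library were further alternatives. The fitting code was tested on simulated counts drawn with the means and spread of Con-Sham. That simulation held neither the larger spread of Con-TAC nor an effect of the name numbers, so it does not cover them.

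Named genes were up to 15 called genes in each direction with a mean of at least 100 and all 6 Con-TAC libraries on 1 side of the Con-Sham mean, up to 8 called members of each list filled to 4 by the highest mean, the genes of the 4 shares, and 5 genes of the interaction. The comparison, the members and the 49 lists (999 genes, 972 in the table, 923 tested) were chosen with earlier results of these data known. Outside that rule, Hspa1l, Sh3bgr, Cfl2, Kcnv2, Kcnd2, Cacna1c, Ccn2, Col1a1, Col3a1, Bambi, Cpxm2, Met, Cpt1b, Acacb, Sox6, Panx1, Ninj1, Celsr2, Slc7a1, Parp1 and Rad21 were picked after their values were seen. A few genes taken by the rule are not reported here. Promoters come from RefSeq on GRCm38.p6, and gene positions in the table are those of mm39.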

Additional observations from a re-analysis of the deposited data

Results flagged for a closer look

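In 264 groups of 6 libraries, 24 held 1 library far from the other 5. The cutoff would give about 1 in 20 if the groups were independent. They reuse the same 12 libraries over genes mostly named because they were called, so the 24 cannot be set against that rate. Con-TAC 6 was the far library 6 times. It was at 890.3 normalised reads for Atp8a2 (the others at most 601), 49.0 for Hba-a2, 60439 for mt-Rnr1, 11.9 for Plekhh1 and 8.70 for Lvrn, and its Myh7 share was 38.6%. Con-TAC 1 lay on the Con-Sham side for Bdh1 (3977), Ninj1 (1165), Celsr2 (279.9) and Rad21 (2678). Con-TAC 2 stood out for Rn18s-rs5 (2891281 reads, a share of 9.22%) and AY036118 (68.5). Con-TAC 4 was lowest for Pde3a (1942) and Gm10435 (105).

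Among Con-Sham libraries, Con-Sham 2 was highest for Hspb8 (16582) and lowest for Mmp3 (5.5), Dkk3 (7.70), Tbx5 (503) and Egr2, which was at 0 there. Con-Sham 1 was highest for Postn (898) and Nmrk2 (166.8). Con-Sham 4 was highest for Adcy6 (9118) and Con-Sham 6 lowest for Ace (1256).

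Abat had differences of opposite sign in the genotypes, of which that in Tg hearts was not called (-0.43, limma adjusted p = 0.151). Each Con-TAC library lay above the Con-Sham mean and each Tg-TAC library below the Tg-Sham mean, although the Tg groups overlapped. Abat had the smallest p of all genes for the difference between genotypes, so these sides are no separate support. That difference was 1.51 on the log2 scale. limma's test of that difference gave an adjusted p of 0.178.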

How the results depend on the processing

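The count of 863 called genes was 524 with no filter on low values, 1438 by DESeq2, 166 with the name number class in the fit, 24 in the libraries named 7 to 14, and 134 to 1543 without 1 library. Scaled to equal totals of reads from outside the mitochondrial genome, 1114 genes were called, 83.6% of them higher against 49.9%. The difference between genotypes had 0 calls, and 2 by DESeq2. Without 1 library the Myh7 share difference was 1.78 to 9.07 percentage points, passing the threshold at 8.15, 9.04 and 9.07 without Con-TAC 2, 3 and 5, and the Rn18s-rs5 share difference was -5.30 (without Con-TAC 2, past the threshold) to -3.29. The Acta1 share difference was 15.3 in the libraries named 7 to 14 and no longer past the threshold, where the smaller number of libraries limits the exact p. The mitochondrial share difference of -0.22 was -1.22 to 0.80 without 1 library, turning positive without Con-Sham 4 (0.229), Con-Sham 5 (0.334), Con-Sham 6 (0.051), Con-TAC 2 (0.049) and Con-TAC 6 (0.80), and 2.94 in the libraries named 7 to 14; the causes were not tested. Replicate numbers did not pair the libraries (correlations of -0.143 to 0.153, with 2 of 6 best matched by their own number), and with a replicate block 739 genes were called, 2574 in Tg hearts and 0 for the difference. None of the 128 tested genes looked up under the alternatives changed direction in 3067 comparisons. These reuse the same libraries and 116 of the genes were called at the start, so a kept direction is little evidence. The result became weaker for 105 of the 128 in the libraries named 7 to 14. With the name number class in the fit it did so for 89, and without Con-TAC 4 for 78.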
